A study of Rattus norvegicus with 24 samples.

Results

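Low-dose MK-801 in the cerebral cortex was measured on 2 dye-swapped arrays, out of 24 arrays that cover 6 brain regions. Both arrays set cortical RNA of rats injected with 0.08 mg/kg MK-801 into the peritoneum against cortical RNA of rats injected with saline, and they were chosen by their sample titles. Cortex at 0.16 mg/kg was measured on another 2 arrays, and the hippocampus, amygdala, ventral striatum, hypothalamus and midbrain at 0.08 mg/kg on 10. All animals were male Wistar rats killed 40 min after injection, 9 in all, of which 3 received saline. Their age is 9 weeks in the labels of the samples but 10 weeks in the description of the design. The treated RNA carried the dye Cy5 on array 1 and Cy3 on array 2. As the labels do not say whether both arrays held different extracts, or how many rats went into an extract, the pair was counted as 1 replicate. Values are therefore given without a test inside the cortex, as the log2 ratio of MK-801 over saline with the SD of the 2 arrays, which includes the part of a gene's dye effect that cancels in the mean.

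MK-801 (dizocilpine) lodges in the open pore of NMDA receptors, the glutamate-gated channels that admit calcium when a depolarised neuron receives glutamate. Calcium entry through these channels is among the signals that switch on immediate early genes, which are transcribed within minutes by factors already present in the cell. Endothelial cells and other vessel cells have early response genes too, switched on by shear, stretch, hormones and growth factors. The surface of the cortex carries the leptomeninges, thin membranes whose fibroblasts make collagens, proteoglycans and retinoid enzymes.

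The tissue label was checked in the saline channels. Markers of cortical glutamatergic neurons were higher in cortex than in the other 5 regions (median log2 difference 1.26, 13 of 15 genes higher). Markers of striatal projection neurons (-0.68), thalamic neurons (-1.36) and choroid plexus (-1.43) were lower. Meningeal and fibroblast matrix markers had a median difference of 0.39 (14 of 20 genes higher in cortex), and blood markers 0.06 (5 of 9). The arrays of 1 region shared a scan time and were taken to lie on 1 slide. Region and slide therefore cannot be told apart in these levels. Between 73.7% and 84% of spots were well above background in the treated channel of the low-dose cortex arrays, and 79.1% and 79.6% in the saline channel.

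A gene was counted as past 1.5-fold where the mean of both log2 ratios was at least 0.585 in size and both arrays had the same sign. Of 26273 genes with signal above background, 81 met this rule (0.308%), 27 higher (0.103%) and 54 lower (0.206%) in MK-801 cortex than in saline cortex. A gene symbol was at hand for 60 of the 81, 16 of them higher and 44 lower. The number of genes tested differed between pairs of arrays, so counts are given with their share. At the low dose 33 passed in the hippocampus (0.161%), 36 in the amygdala (0.158%) and 33 in the ventral striatum (0.133%). The hypothalamus had 31 (0.136%) and the midbrain 49 (0.209%). In cortex at the high dose 53 genes passed (0.209%), 38 higher and 15 lower. Most cortical genes moved little: the median ratio was 0.00123, and 97% of genes lay within 0.2 of no change. Every gene whose mean was past 1.5-fold had the same sign on both arrays, although over all genes, which are not independent, the arrays correlated at r = -0.203 and, after removal of the mean dye effect of the other 11 pairs, at r = 0.331. Read singly, both arrays were past 1.5-fold in the same direction for 65 genes and in opposite directions for 3.

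**Figure D1:**
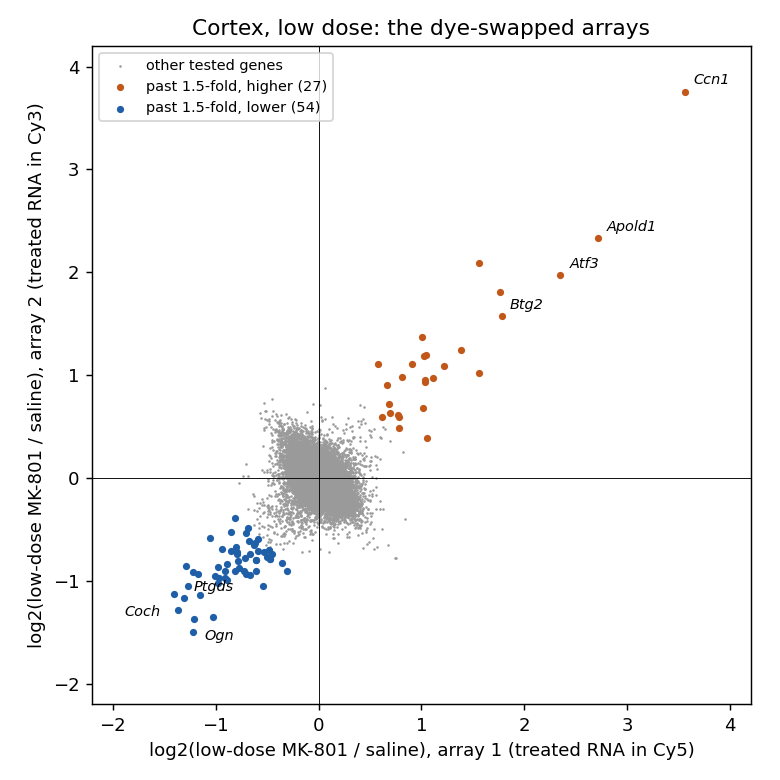
Log2 ratio of low-dose MK-801 over saline in cortex on array 1 (horizontal, treated RNA in Cy5) against array 2 (vertical, treated RNA in Cy3), 1 point per gene tested. The 27 higher genes (orange) lie in the upper right corner, led by Ccn1, and the 54 lower genes (blue) form a group in the lower left, while the cloud of other genes slopes from upper left to lower right.

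Among genes with a symbol, the highest ratios belonged to early response genes, several of them known from vessel cells. Features without a symbol, such as TC537427 at 1.82, are described further below. Ccn1, listed on the array as Cyr61, encodes a secreted matrix protein that vessel cells make within minutes of stimulation. It stood at 3.56 on array 1 and 3.76 on array 2, a mean of 3.66 ± 0.14 or 12.6-fold, the highest of all genes tested. A second Ccn1 probe gave 2.30 and 2.11 (mean 2.21), so the 2 probes of the gene were both far above saline but differed in size. Apold1, known as an endothelial early response gene and listed as Verge, stood at 2.72 and 2.33 (mean 2.53 ± 0.27, 5.76-fold). The probe sequences behind these values, and those of Atf3 and Btg2 described next, are printed 5′ to 3′ with the positions in build rn3 that the files give, because these 4 genes carry the highest named ratios and because Ccn1 was read at 2 places.
Ccn1, chr2:243811128-243811187, minus strand: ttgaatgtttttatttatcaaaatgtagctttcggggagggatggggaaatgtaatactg
Ccn1 second probe, chr2:243811662-243811721, minus strand: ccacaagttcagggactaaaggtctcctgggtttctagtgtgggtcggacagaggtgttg
Apold1, chr4:172152432-172152491, plus strand: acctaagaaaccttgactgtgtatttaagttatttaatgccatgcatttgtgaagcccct
Atf3, chr13:107380795-107380853, minus strand: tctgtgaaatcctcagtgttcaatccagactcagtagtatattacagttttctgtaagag
Btg2, chr13:47041065-47041124, minus strand: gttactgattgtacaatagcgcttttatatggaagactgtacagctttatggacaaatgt

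Atf3, a stress-inducible transcription factor of the ATF/CREB family, stood at 2.35 and 1.97 (mean 2.16 ± 0.27, 4.47-fold). Btg2, an antiproliferative early gene, stood at 1.77 and 1.80 (mean 1.79 ± 0.03, 3.45-fold). For each of these 4 genes both arrays were above 1.7, and the spread of the arrays was at most 0.27.

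Early response genes of vessel cells formed the list with the highest median. Of its 14 tested members 8 were past 1.5-fold higher and 1 was lower, against 0.103% higher and 0.206% lower over all genes tested. The median was 0.65, against 0.00123 over all genes. This and the other lists were chosen with earlier results of these data known, and their counts were not tested. Besides Ccn1 and Apold1 the higher members were Depp1, a FOXO target (1.39 and 1.24, mean 1.31 ± 0.10), the zinc finger factors Klf4 (1.56 and 1.02, mean 1.29 ± 0.38) and Klf2 (1.03 and 0.95, mean 0.99 ± 0.06), and Adamts1, a secreted protease that cleaves proteoglycans (1.22 and 1.09, mean 1.15 ± 0.09). All 4 were at least 0.95 above saline with either dye. Named after their values were seen, Edn1, the precursor of the vasoconstrictor endothelin, had a mean of 0.69 ± 0.11, and Zfp36, an mRNA-destabilising protein, one of 0.60 ± 0.02. Thbd, the anticoagulant receptor thrombomodulin of endothelial cells, was the lower member, at -0.76 ± 0.04. Among members short of the threshold, the endothelial transcription factor Sox18 had a ratio of -0.57 and the vessel-destabilising ligand Angpt2 one of -0.52 (other probe -0.29), whereas the matrix protein gene Ccn2 was at 0.10. Leaving out array 2 brought the higher members to 7, and using the scanner software's processed signals brought the median to 1.02.

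Markers of the vessel cells themselves gave values close to no change. None of 23 tested endothelial and mural markers was past 1.5-fold, against 0.308% of all genes tested, a share at which few lists of this size hold any. Their median was -0.06, and the lowest and highest were -0.45 and 0.48. The tight junction gene Cldn5 was at -0.06 and the pericyte gene Pdgfrb at -0.08.

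Among 23 immediate early transcription factors linked to neuronal activity, 4 were past 1.5-fold higher, against 0.103% of all genes tested. None was lower and the median was 0.04. The 4 were Atf3, Btg2, Ier2 and Jun. Ier2, a nuclear early response protein, stood at 1.04 and 0.94 (mean 0.99 ± 0.07), and Jun, a subunit of the AP-1 factor, at 0.70 and 0.63 (mean 0.66 ± 0.05). Fos, its usual partner and the classic marker of neuronal firing, read 0.01 on array 1 and 0.71 on array 2, a mean of 0.36 ± 0.49, so the arrays disagree and the mean is short of the threshold. Egr1, a zinc finger factor that tracks synaptic activity, was at -0.09 and -0.22 (mean -0.15 ± 0.09). Values for Egr2, Nr4a3, Fosb, Junb and Nr4a1 were -0.41, -0.26, -0.08, 0.19 and 0.40. The other 2 tested probes of Nr4a3 averaged 0.29, opposite in sign to the value given. The other 19 tested factors of the list, Fos and Egr1 among them, were thus short of 1.5-fold in the mean.

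Activity-regulated effector genes, which act at synapses or feed back on signalling, gave 1 member past 1.5-fold higher of 24 tested. The share over all genes tested was 0.103%, and the median of the list was -0.01. That member was Dusp1, a phosphatase that switches off MAP kinases, at 0.91 and 1.11 (mean 1.01 ± 0.14, 2.02-fold). Arc, whose protein trims AMPA receptors at synapses, stood at -0.04 and 0.20 (mean 0.08 ± 0.17). Bdnf, the neurotrophin, stood at -0.19 and -0.14 (mean -0.16 ± 0.04), and its second probe had a mean of -0.32. Sik1, a kinase induced by cAMP, came closest among the others at 0.57.

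In the list of chemokines, cytokines and adhesion genes, 2 of 11 tested members were past 1.5-fold higher, against 0.103% of all genes tested. The median was -0.04. The 2 were the chemokine Ccl2 and Cebpd, a transcription factor that the list also holds. Ccl2, the chemokine that draws monocytes, stood at 1.11 and 0.98 (mean 1.04 ± 0.10), and 1.82 with the scanner software's processed signals. Cebpd, a transcription factor of acute inflammatory and hormonal responses, stood at 0.81 and 0.98 (mean 0.89 ± 0.12). Il1b and Il6, cytokines that often rise with Ccl2 in inflamed tissue, were at 0.05 and -0.04, and the endothelial adhesion genes Icam1 and Sele at -0.10 and 0.05. No member of the 15 glucocorticoid-responsive genes tested was past 1.5-fold (median 0.05), against 0.308% of all genes tested in both directions. Sgk1, a kinase induced by steroids, was the highest at 0.51, and Fkbp5 was at 0.03.

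**Figure D2:**
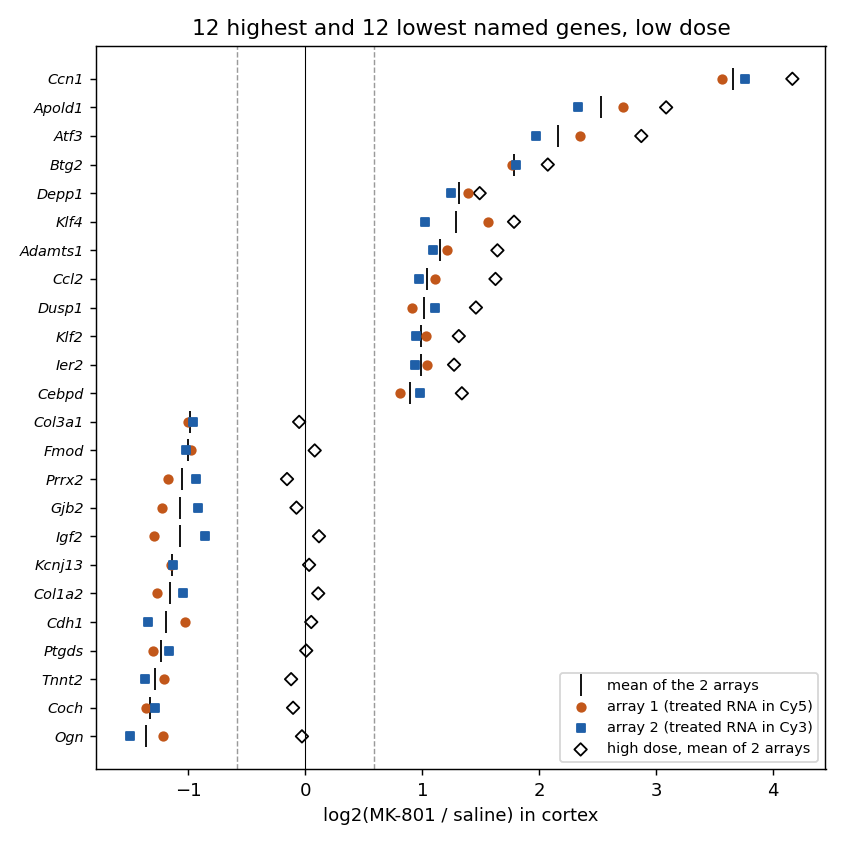
Log2 ratio of MK-801 over saline in cortex for the 12 highest and 12 lowest named genes at the low dose, with array 1 as orange circles, array 2 as blue squares, their mean as a black bar and the high-dose mean as an open diamond; dashed lines mark 1.5-fold. High-dose values lie to the right of the low-dose mean for the 12 higher genes and near 0 for the 12 lower ones.

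Promoters of the higher genes were searched for short motifs, as a description of the sequence only. RefSeq promoters of build GRCr8, from 250 bases before to 50 bases after the gene start, were at hand for 11 of the 16 higher genes with a symbol. Promoters of Atf3, Jun, Klf2, Ccl2 and Cebpd were not at hand and were not searched. The cAMP response element TGACGTCA, which reads the same on both strands and binds CREB and ATF factors, was present in 3 of the 11 (27.3%), against 612 of all 33469 promoters (1.83%) and 0 of 35 promoters of lower genes. It began 201 bases before the start of Btg2, 124 before that of Dusp1 and 66 before that of Ier2. The AP-1 site TGANTCA was in 0 of the 11, against 7.33% of all promoters, and the CArG box, which binds serum response factor, was in 1, that of Zfp36, against 1.64%. The letters TATAAA, on either strand, were in 5 (Adamts1, Apold1, Ccn1, Edn1 and Klf4), against 14.2%; a CArG box can hold part of a TATAAA. A match is no evidence of binding, and a missing match says only that the letters are not in these 300 bases. The 3 promoters with the cAMP response element are shown with the element in capitals.
Btg2, chr13:48087641-48087940, minus strand: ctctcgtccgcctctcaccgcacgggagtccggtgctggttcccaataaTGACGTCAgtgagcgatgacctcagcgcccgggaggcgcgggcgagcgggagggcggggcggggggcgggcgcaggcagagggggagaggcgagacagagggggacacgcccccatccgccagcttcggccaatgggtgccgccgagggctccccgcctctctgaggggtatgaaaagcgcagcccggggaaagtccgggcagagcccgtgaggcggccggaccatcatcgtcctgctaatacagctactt
Dusp1, chr10:17184603-17184902, plus strand: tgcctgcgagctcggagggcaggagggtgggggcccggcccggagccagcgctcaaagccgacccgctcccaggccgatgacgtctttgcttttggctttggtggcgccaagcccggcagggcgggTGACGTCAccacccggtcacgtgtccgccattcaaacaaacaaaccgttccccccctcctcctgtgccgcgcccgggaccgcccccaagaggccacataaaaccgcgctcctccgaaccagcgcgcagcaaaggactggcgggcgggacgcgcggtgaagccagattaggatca
Ier2, chr19:40399123-40399422, plus strand: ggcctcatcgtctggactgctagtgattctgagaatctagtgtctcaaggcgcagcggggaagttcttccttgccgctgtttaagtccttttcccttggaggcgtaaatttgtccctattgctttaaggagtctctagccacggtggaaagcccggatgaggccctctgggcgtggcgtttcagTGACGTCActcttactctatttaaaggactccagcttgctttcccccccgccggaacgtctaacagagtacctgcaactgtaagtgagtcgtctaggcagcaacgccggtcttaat

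The lower genes were led by fibroblast matrix genes of the meninges. Of 20 tested meningeal and fibroblast matrix markers 12 were past 1.5-fold lower, against 0.206% of all genes tested, and none was higher. All 20 had a ratio below 0 (from -1.36 to -0.02, median -0.79). Ogn, a small leucine-rich proteoglycan, was the lowest named gene, at -1.22 and -1.50 (mean -1.36 ± 0.20), and its second probe gave -0.95 and -1.28. Ptgds, the enzyme of prostaglandin D synthesis that arachnoid cells secrete into cerebrospinal fluid, stood at -1.31 and -1.17 (mean -1.24 ± 0.10). In dissected tissue, fewer cells of a type and less RNA per cell cannot be told apart. The probes of Ogn and Ptgds are shown because they gave the lowest ratios of the list.
Ogn, chr17:20987215-20987274, minus strand: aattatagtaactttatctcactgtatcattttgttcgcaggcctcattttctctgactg
Ogn second probe, chr17:20988620-20988679, minus strand: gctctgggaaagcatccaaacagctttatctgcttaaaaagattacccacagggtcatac
Ptgds, chr3:3633310-3633779, minus strand: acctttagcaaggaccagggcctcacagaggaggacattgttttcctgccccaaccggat

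The fibrillar collagen chains were lower together. Col1a2 stood at -1.27 and -1.05 (mean -1.16 ± 0.16, other probe -0.91), Col3a1 at -1.01 and -0.96 (mean -0.98 ± 0.04) and Col1a1 at -0.96 and -0.97 (mean -0.97 ± 0.01). For Col1a1 the probes disagreed, since the other probes of the gene averaged -0.25. Fmod, which binds collagen fibrils, stood at -0.98 and -1.02 (SD 0.03). Igf2, a growth factor made by meninges and choroid plexus, stood at -1.29 and -0.86 (mean -1.07 ± 0.31), and its binding protein Igfbp2 had a mean of -0.94 ± 0.04. Gjb2, the connexin of leptomeningeal gap junctions, stood at -1.22 and -0.92 (mean -1.07 ± 0.22). The retinoid genes Crabp2 and Aldh1a2 had means of -0.94 and -0.59, and Slc6a13, a GABA and taurine transporter of meninges, one of -0.64. Members of the list short of the threshold were the proteoglycans Bgn (-0.53), Dcn (-0.40) and Lum (-0.17), the transporters Slc22a6 (-0.41) and Slc47a1 (-0.12), and Fn1 (-0.41), Mgp (-0.33) and Col6a1 (-0.02). Thus the list was lower as a whole, and its members ranged from no change to more than 2-fold.

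Of the lower genes outside the list, the following were named. Coch, a secreted protein best known from the inner ear, stood at -1.37 and -1.29 on its brightest probe (mean -1.33 ± 0.06), but its second probe gave 0.02 and -0.25 (mean -0.12), and the mean over probes was -0.72. Both probes are shown because they disagree; the second spans 534 bases of the genome in the file's coordinates, against 60 for the brightest.
Coch, chr6:71708638-71708697, plus strand: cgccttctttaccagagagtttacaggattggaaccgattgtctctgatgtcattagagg
Coch second probe, chr6:71699454-71699987, plus strand: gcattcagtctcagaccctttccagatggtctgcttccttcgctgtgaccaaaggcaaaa

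Tnnt2, cardiac troponin T, stood at -1.21 and -1.37 (mean -1.29 ± 0.11), and Prrx2, a homeobox factor of mesenchyme, at -1.18 and -0.93 (mean -1.05 ± 0.17). Cdh1, the epithelial cadherin found in the arachnoid barrier layer, stood at -1.03 and -1.35 (mean -1.19 ± 0.22). Sfrp1, a secreted Wnt inhibitor, stood at -0.71 and -0.93 (mean -0.82 ± 0.16), and Cpxm2, a carboxypeptidase-like secreted protein, at -0.61 and -0.63 (mean -0.62 ± 0.01). Cd74, the invariant chain of class II histocompatibility molecules, stood at -0.80 and -0.67 (mean -0.73 ± 0.09). Named after their values were seen, the class II gene RT1-Da was at -0.83 (other probe -0.15), the mesothelial gene Msln at -0.92, the matrix genes Thbs2 (other probe -0.32), Mfap5, Pcolce, Timp1 and Omd at -0.70, -0.63, -0.59, -0.60 and -0.59, the chemokine Ccl19 at -0.60 and the meningeal transcription factor Tfap2b at -0.62.

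Other cell types that a cortical piece can hold were lower to a lesser degree or not at all. Of 6 tested choroid plexus and ependymal markers 1 was past 1.5-fold lower, against 0.206% of all genes tested. It was Kcnj13, a potassium channel of choroid plexus epithelium, at -1.15 and -1.13 (mean -1.14 ± 0.01). Ttr, the most abundant choroid plexus transcript, was at -0.27, Folr1 at -0.00 and Foxj1, a factor of ciliated cells, at 0.03, and the median of the list was -0.00. None of 9 blood markers was past 1.5-fold (median -0.12); Hbb, a haemoglobin chain, stood at -0.31 and -0.26 (mean -0.28 ± 0.03). None passed among 16 microglial markers (median 0.03), 13 astrocyte markers (0.03) or 16 oligodendrocyte markers (0.06). Over all genes tested 0.308% passed, so lists as short as these and the blood list would seldom hold any.

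Levels of the 4 RNAs on the cortex slide, taken as such because its arrays shared a scan time, were compared within each dye. Within each dye the slide held low-dose RNA, high-dose RNA and saline RNA from both pairs of arrays, and levels were set against the mean of the 2 saline levels. The 2 saline levels of a gene therefore mirror each other around 0, and both may come from the same RNA. On which side of the ratio a difference arose was thus not tested. In Cy5 the median of the 20 meningeal markers was -0.73 in low-dose RNA and 0.15 in high-dose RNA, and -0.09 and 0.09 in the saline RNAs. In Cy3 it was -0.81 in low-dose RNA and 0.02 in high-dose RNA, and 0.03 and -0.03 in the saline RNAs. In each dye 17 of the 20 markers (85%) were lower in low-dose RNA than in both saline RNAs, against 27.3% of all genes in Cy5 and 26.6% in Cy3. These levels come from the same arrays as the ratios, in which all 20 markers were below 0. The counts therefore describe the same measurements again and add no support to the ratios. The median over all genes tested lay between -0.07 and 0.09 in every RNA. For the meningeal list the low-dose RNA had the lowest median of the 4 in each dye. It was the lowest RNA for 14 of the 20 markers in Cy5 and 16 in Cy3. Over all 25987 genes it was the lowest for 5091 in Cy5 and 5914 in Cy3. In Cy5, Col1a1, Bgn, Slc6a13 and Col6a1 were lower in high-dose RNA (-0.93, -0.79, -1.10 and -0.80) than in low-dose RNA. In Cy3 the same 4 lay above 0 in high-dose RNA (0.59, 0.40, 0.26 and 0.43). Early response genes of vessel cells had medians of 0.79 in Cy5 and 0.48 in Cy3 in low-dose RNA, and of 0.64 and 0.80 in high-dose RNA, against -0.08 to 0.08 in the saline RNAs. The part of the meningeal difference in the values of other lower genes was not tested.

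**Figure D3:**
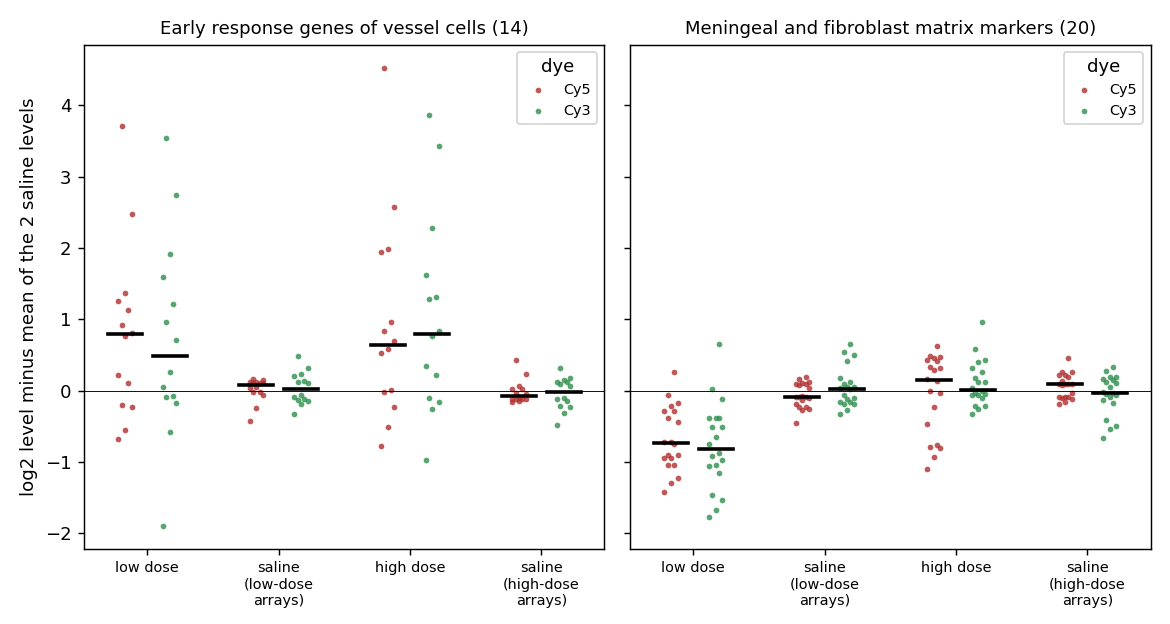
Log2 level of each gene in the 4 RNAs of the cortex slide, within Cy5 (red) and Cy3 (green), minus the mean of the 2 saline levels in that dye; bars mark medians of the list. Early response genes of vessel cells (left) have medians above 0 in both low-dose and high-dose RNA. The median of the meningeal markers (right) is well below 0 in low-dose RNA alone (-0.73 and -0.81), though some markers are low in high-dose RNA too.

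Genes of the drug's own target system did not pass 1.5-fold. None of 23 glutamate receptor genes tested passed, and their ratios lay between -0.09 and 0.12 with a median of 0.03. Over all genes tested the share that passed was 0.308%, so a list of this size would seldom hold any. The same holds for the other lists of this paragraph. Grin1, the obligatory subunit of the NMDA receptor, stood at 0.06 and -0.00 (mean 0.03 ± 0.05), and the channel's regulatory subunits Grin2a and Grin2b at 0.08 and 0.12. GABA-A receptor genes (12 tested, median 0.04) and genes of GABA synthesis, transport and interneurons (11 tested, median -0.01) had no member past 1.5-fold; Gad1, which makes GABA, was at 0.05 and Pvalb, a calcium buffer of fast-spiking interneurons, at 0.11. Also with no member past 1.5-fold were markers of cortical glutamatergic neurons (15 tested, median 0.03), striatal projection neurons (12, 0.01) and thalamic neurons (6, -0.00), circadian clock genes (15, 0.03), heat shock proteins and chaperones (14, -0.00) and interferon-stimulated genes (19, -0.14). Of the interferon-stimulated genes, 2 of 19 were above 0, and the lowest was Gbp2, a guanylate-binding protein, at -0.41.

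**Figure D4:**
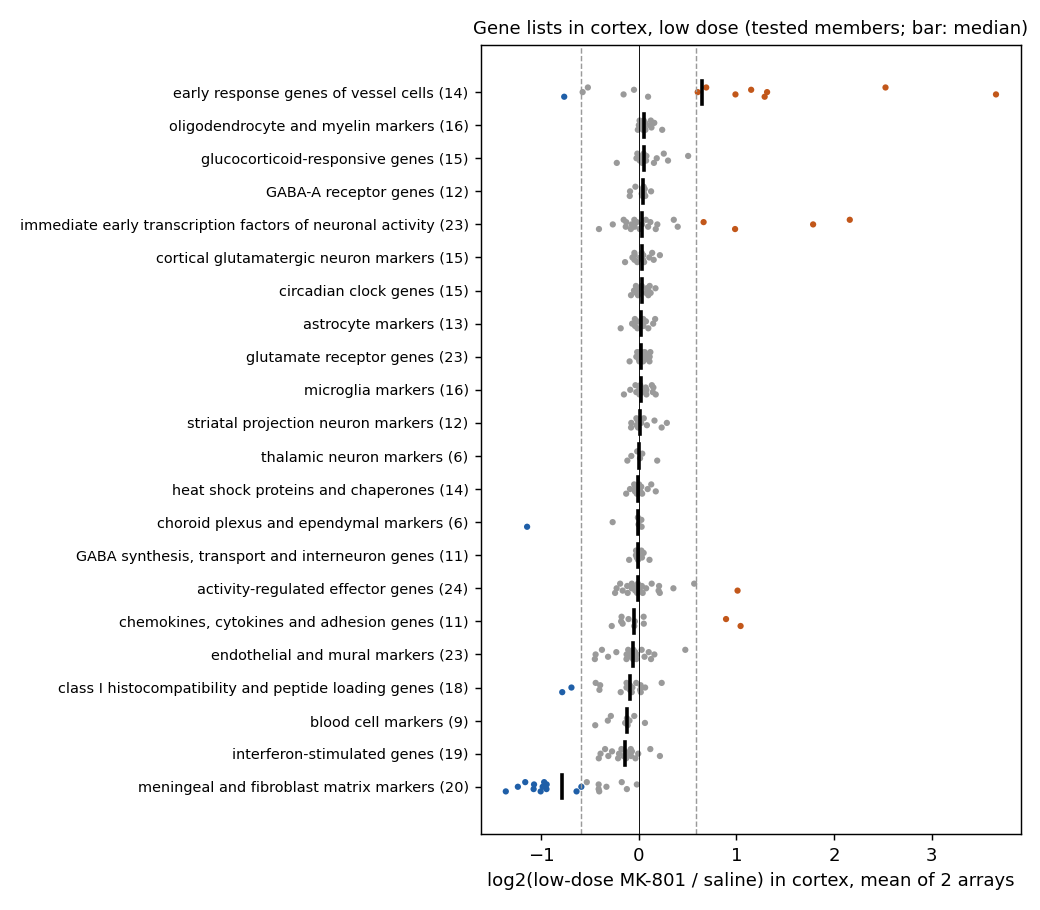
Log2 ratio of low-dose MK-801 over saline in cortex (mean of 2 arrays) for the tested members of the 22 gene lists, with the number tested in brackets, medians as black bars and 1.5-fold as dashed lines; orange points are higher, blue points lower and grey points short of 1.5-fold. The list of vessel early response genes has a median of 0.65 and the meningeal list one of -0.79, and the medians of the other 20 lists lie between -0.14 and 0.06.

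The high dose was measured in cortex on another pair of arrays. Both comparisons may share saline RNA, so values are given side by side and nothing is drawn from their likeness. Ccn1 was at 3.66 at the low dose and 4.16 at the high dose, Apold1 at 2.53 and 3.08, Atf3 at 2.16 and 2.87, Btg2 at 1.79 and 2.07, and Fos at 0.36 and 0.90. The median over the 27 higher genes was 1.01 at the low dose and 1.27 at the high dose. For the lower genes the values ran apart. The median of the 54 was -0.80 at the low dose and, over the 53 with a value there, -0.00 at the high dose. Ogn was at -1.36 and -0.03, Ptgds at -1.24 and 0.01, Col1a2 at -1.16 and 0.11 and Kcnj13 at -1.14 and 0.03. As the 54 were picked by their low-dose ratio, a high-dose value nearer to no change is partly built in. The median of the meningeal list was -0.79 at the low dose and 0.04 at the high dose, and that of the blood markers -0.12 and 0.38. The difference between doses was not tested, as each dose has 1 pair of arrays.

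The other comparison that the design allows sets cortex against the other 5 regions at the same dose. It was tested with limma, with 1 value per region. The regions were dissected from the brains of the same rats, so the 6 values are not independent animals. The lone cortex value is assumed to vary like those of the other regions, and the p-values measure the spread between regions, not between rats. Of 22953 genes tested, 25 differed at a Benjamini-Hochberg adjusted p of at most 0.05 (0.109%), 8 with a higher ratio in cortex (0.0349%) and 17 with a lower one (0.0741%). Without adjustment 578 genes had p under 0.05. Both rules use the same cortical ratio, so an overlap is built in. Of the 81 genes past 1.5-fold in cortex, 22 were among the 25. The other 3, Asgr1, Aspg and Slc16a11, had cortical ratios of -0.40, -0.57 and -0.53 and were named because they are the whole remainder.

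Atf3 had the smallest adjusted p. Its ratio was 2.16 in cortex, against -0.10 in the hippocampus, 0.14 in the amygdala, 0.24 in the ventral striatum, -0.39 in the hypothalamus and -0.35 in the midbrain, a difference of 2.25 ± 0.19 (SE, limma adjusted p = 0.00226, 6 regions). Cortex was thus the sole region in which Atf3 was past 1.5-fold at this dose. Apold1 was 2.53 in cortex, against 0.30 to 1.10 elsewhere (difference 1.85 ± 0.24, limma adjusted p = 0.0202), so it was above 0 in all 6 regions and highest in cortex. Btg2 was 1.79 in cortex, against 0.17 to 0.84 elsewhere (difference 1.34 ± 0.19, limma adjusted p = 0.0265). Depp1, Adamts1, Ccl2 and Cebpd also differed, by 1.12, 1.01, 0.98 and 0.69, with limma adjusted p-values of 0.0422, 0.0362, 0.0202 and 0.0202. Ccn1 missed the threshold although its difference was larger (2.55 ± 0.65, limma adjusted p = 0.468), as its ratio spread from -0.04 in the midbrain to 2.58 in the ventral striatum. Klf4, Klf2, Ier2, Dusp1 and Jun had differences of 0.93, 0.64, 0.74, 0.51 and 0.62 that did not pass (limma adjusted p from 0.0904 to 0.658).

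Named genes with a lower ratio in cortex were Igf2 (-1.07 in cortex, against -0.23 to 0.25 in the 4 other regions where it was tested, the hippocampus not being among them), Coch, Tnnt2, Prrx2, Gjb2, Sfrp1, Cd74 and Cpxm2. Their differences ran from -1.18 for Igf2 to -0.63 for Cpxm2, with limma adjusted p-values from 0.0179 for Sfrp1 to 0.0413 for Cd74. Coch rests on its brightest probe and did not pass with the mean over probes. Of the 19 meningeal markers tested in this comparison 2 passed, Igf2 and Gjb2, against 0.0741% of all genes tested that were lower in cortex. Medians of the list at the low dose were -0.79 in cortex, -0.45 in the hippocampus, 0.00 in the amygdala, 0.02 in the ventral striatum, 0.04 in the hypothalamus and -0.23 in the midbrain, so the hippocampus and midbrain were lower too. Ogn, Ptgds, Col1a2 and Col3a1 had differences of -1.08, -1.04, -0.95 and -0.83 that did not pass (limma adjusted p from 0.12 to 0.637), with hippocampal ratios of -0.71, -0.71, -0.71 and -0.68. The 25 calls depend on the processing: with the scanner software's processed signals limma called 0 (529 at an unadjusted p under 0.05), from the authors' deposited values likewise 0 (535), and with the ventral striatum, which was scanned on the same day as the cortex, set in a common block, it called 2, Atf3 and Ogn. Without the hypothalamus Atf3 alone passed, without the ventral striatum 8 genes did, and without the hippocampus 38.

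**Figure D5:**
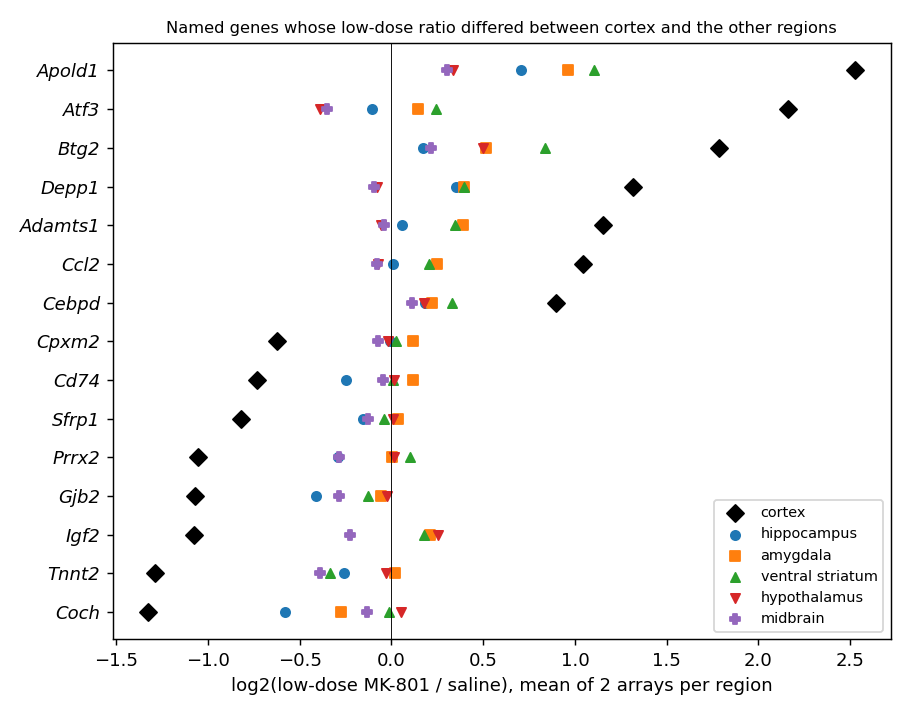
Log2 ratio of low-dose MK-801 over saline for the 15 named genes whose ratio differed between cortex and the other 5 regions, with cortex as black diamonds and each other region as a coloured symbol (mean of 2 arrays; Igf2 has no hippocampal value). Cortex is the outermost point for all 15 genes, and Atf3 has the widest gap, from 2.16 in cortex to 0.24 in the ventral striatum.

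Some genes had ratios in cortex that were like those in all other regions. As the regions came from the same rats, their values are not independent. Among class I histocompatibility and peptide loading genes, 2 of 18 tested were past 1.5-fold lower, against 0.206% of all genes tested. The median was -0.09. RT1-CE3, a class I gene, stood at -0.86 and -0.71 (mean -0.78 ± 0.10) in cortex, and between -0.87 and -0.60 in the other 5 regions. In cortex at the high dose it was at -0.34, short of 1.5-fold. RT1-CE16 stood at -0.85 and -0.52 (mean -0.69 ± 0.23), between -0.77 and -0.54 elsewhere, and at -0.26 in cortex at the high dose. Neither differed between cortex and the other regions by limma (adjusted p = 1), with differences of -0.05 ± 0.10 and -0.05 ± 0.10. B2m, the light chain of class I molecules, and the peptide transporter gene Tap1 were at -0.07 and -0.06. Class I genes are near-identical copies, so a probe can read several of them. The 2 probes share a run of 16 bases, shown in capitals.
RT1-CE3, chr20:3553165-3553351, minus strand: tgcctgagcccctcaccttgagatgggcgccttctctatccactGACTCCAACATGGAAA
RT1-CE16, chr20_random:37900-37959, minus strand: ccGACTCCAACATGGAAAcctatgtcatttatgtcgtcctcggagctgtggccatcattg

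Named after their values were seen, the phosphatase gene Ptprj stood at -0.78 and -0.81 in cortex (mean -0.79 ± 0.02) and between -0.79 and -0.63 elsewhere. Its second probe had a mean of -0.36 in cortex, and at the high dose Ptprj was at -0.40 in cortex. The glycosyltransferase gene Galnt16 was at -0.91 in cortex and between -0.78 and -0.51 elsewhere, and at -1.80 in cortex at the high dose. Of the 27 higher genes 5, none with a symbol, were past 1.5-fold in all 5 other regions as well. The feature LOC685106 stood at 1.79 and 1.57 (mean 1.68) in cortex, at 1.83 to 2.35 in the other regions, and at -0.10 in cortex at the high dose. TC537427 stood at 1.56 and 2.09 (mean 1.82) in cortex, at 1.12 to 1.52 elsewhere, and at 1.38 in cortex at the high dose. Both features were thus past 1.5-fold in all 6 regions at the low dose.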

How the data were processed

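The deposited scanner files hold spot intensity in both channels on a linear scale, made by Agilent Feature Extraction 9.5.3.1, per the file headers, with coordinates of build rn3. Per the file headers, they further give processed signals, corrected for background and dye, and the log10 ratio of red over green. The authors' deposited values are log10 of treated over saline: once swapped arrays were turned, 100% differed by at most 0.01 from the ratio of processed signals.

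Mean signals were background-corrected with normexp (offset 50) and normalised within arrays by loess in limma 3.58.1 under R 4.3.3, with control spots at weight 0 and outlier spots left out. Ratios were turned to treated over saline and spots of a probe averaged. A gene was represented by its brightest probe, and tested if well above background in the treated or the saline channel on both arrays. Names were updated through RefSeq (GRCr8): of 43379 spots 21098 kept the file's name. Genes were called at a fold of 1.5. Cortex was tested against the other 5 regions with limma and Benjamini-Hochberg adjustment, where at least 3 of them had a value; the script was tested on simulated data. Alternatives were processed signals, median centring, an offset of 16, the deposited values, other filters, the mean over probes, single arrays with the mean dye effect removed, a 2-fold threshold, scan day and other priors. Counts of list members and of shared genes under these alternatives were added after seeing the data. Arrays limit the precision by their number.

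Named are the 12 highest and 12 lowest called genes with a symbol, called members of each list (at most 6) with Fos, Egr1, Arc, Bdnf, Grin1, Col1a2 and Hbb, and, among genes with a symbol that passed limma, up to 8 differences each way, largest first (7 higher and 8 lower); other genes were named after their values were seen. Groups follow the sample titles. The members, the 22 lists and the tests were chosen with earlier results of these data known.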

Additional observations from a re-analysis of the deposited data

Results flagged for a closer look

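For 32 of the 36 named genes a value was measured in all 6 regions, and the cortex value was set against the other 5 by the gap to its nearest neighbour over the whole range (Dixon's criterion). Chance marks about 1 in 20 groups, but that rate does not apply here: 24 of the 36 genes were named for their size in cortex, and all 11 genes marked were named because their ratio differed between cortex and the other regions by limma. The values below therefore describe genes chosen for this pattern and add no support to it. Cortex stood apart on the high side for Apold1 (2.53), Atf3 (2.16), Depp1 (1.31), Adamts1 (1.15), Ccl2 (1.04) and Cebpd (0.89). It stood apart on the low side for Tnnt2 (-1.29), Gjb2 (-1.07), Prrx2 (-1.05), Sfrp1 (-0.82) and Cpxm2 (-0.62).

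By limma, the low-dose ratio was higher in cortex than in the mean of the other regions by 1.85 for Apold1, 2.25 for Atf3, 1.34 for Btg2, 1.12 for Depp1, 1.01 for Adamts1, 0.98 for Ccl2 and 0.69 for Cebpd. The difference was -1.14 for Coch, -1.09 for Tnnt2, -1.18 for Igf2 (over 4 other regions, without the hippocampus), -0.89 for Gjb2, -0.96 for Prrx2, -0.77 for Sfrp1, -0.70 for Cd74 and -0.63 for Cpxm2.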

How the results depend on the processing

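Treated and saline RNA were paired on each array, and both arrays of a dye swap were averaged. Pairing by rat was not possible, because the labels do not say which rats or extracts an array held. Counts past 1.5-fold in cortex were 214 with processed signals (59 higher, 155 lower) and 208 with the deposited table (58, 150). At 2-fold 26 passed (14, 12), against 81 (27, 54) in the main setting. All 81 were among those called from processed signals and the deposited table, which are nearly the same values. Of the 81, 0 changed sign under the 11 alternatives. The 2-fold threshold, the background filters and the sign rule after removal of the dye effect leave the ratio as it was. A change of sign was therefore not possible under those settings. Genes that differed between cortex and the other regions numbered 25 by limma (8 higher, 17 lower), 0 (0, 0) with processed signals and the deposited table, 15 (4, 11) with median centring, 1 (1, 0) at an offset of 16, 2 (1, 1) with scan day as a block and 4 (2, 2) with a trended, robust prior; leaving out 1 other region gave 1 to 38 (higher 1 to 8, lower 0 to 32). Atf3 passed in all of these but those with 0. The median of vessel early genes (0.65) became 1.02 with processed signals and the deposited table, 0.73 with median centring and 0.85 at an offset of 16. That of the meningeal list (-0.79) became -0.96 with processed signals and the deposited table, -0.85 at an offset of 16, -0.64 with no filter on dim probes and -0.61 with the mean over probes, and -0.86 to -0.77 on single arrays. The median of activity transcription factors (0.0353) became 0.0169 with median centring, 0.0544 with no filter, 0.0736 with the mean over probes and 0.0661 to 0.0684 on single arrays. That of glutamate receptors became 0.0434 with processed signals, 0.0498 with the deposited table, 0.0319 at an offset of 16, 0.0284 with median centring, 0.0286 with both channels above background, 0.0342 with the mean over probes and 0.0071 to 0.0358 on single arrays. Thalamic neurons gave -0.0314 with processed signals, 0.0210 with median centring, -0.0307 with the deposited table and -0.0264 to -0.0058 on single arrays. Chemokines gave -0.128 with processed signals and the deposited table, -0.111 with median centring and -0.0724 to -0.0399 on single arrays. Astrocyte markers gave 0.0095 with processed signals and 0.0058 to 0.0457 on single arrays, and the deposited table gave -0.199 for blood and 0.0581 for microglia. Single arrays gave 0.0099 to 0.0774 for striatal neurons and 0.0482 to 0.0922 for clock genes. The causes were not tested. Ratios of dim probes are limited by the offset and by signal over background.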
